A study of Mus musculus with 9 samples.

Results

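The genes described are those of the proteasome, the protease that degrades ubiquitin-tagged proteins, in mouse cardiomyocytes isolated at birth. They were taken by name, as every gene whose symbol begins with Psma to Psmg followed by a digit. Of the 18738 genes measured, 50 matched, and 49 of them averaged at least 1 TPM, a relative transcript level corrected for transcript length, over the 9 libraries. Psmb11, the thymus-specific catalytic subunit, was left out at a mean of 0.851 TPM, and Psma8, just inside the limit, had 1.45 TPM. The rule also took in Psmc3ip, which shares a name stem but encodes a meiotic recombination cofactor and no subunit, and Psme2b, a gene close in name to Psme2. The remaining 47 encode 14 constitutive subunits of the 20S core, 17 of the 19S regulatory particle, 3 immunoproteasome subunits, the germ-cell core subunit Psma8, 3 chaperones of 19S assembly, 4 of 20S assembly, 4 activators and 1 inhibitor.

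All libraries came from wild-type C57BL/6J pups. Throughout gestation their mothers, assigned at random, were kept on a diet labelled normal (ND), slight high-fat (sHFD) or high-fat (HFD), with 3 libraries for each. The columns are named CON, MID and HIGH and were read as ND, sHFD and HFD, so every direction rests on that reading. No label ties a library to a litter or an animal, and the spread behind each p-value may therefore be technical. The study asked how such a diet could impair the proliferation of fetal heart muscle cells. TPM keeps no read number, so the depth behind each value is unknown.

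The 20S core is a barrel of 4 stacked rings, with alpha subunits (Psma) outside and beta subunits (Psmb) inside, where the proteolytic sites lie. The 19S particle caps it, binds and unfolds ubiquitinated proteins with an ATPase ring (Psmc), and removes their ubiquitin with its other subunits (Psmd). In immune cells and under interferon, alternative catalytic subunits replace the constitutive ones and form the immunoproteasome. In heart muscle the proteasome clears damaged and surplus sarcomere proteins, and its subunit genes are known to be induced together by the transcription factor Nfe2l1 when degradation is blocked.

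The subunits of each particle had levels within a narrow band. Mean levels over the 9 libraries ran from 131 TPM for Psma1 to 325 TPM for Psmb7 among the 14 core genes, a 2.49-fold span with a median of 206 TPM. Among the 17 genes of the 19S particle they ran from 92.1 TPM for Psmd14, the deubiquitinase of the lid, to 288 TPM for Psmc3, an ATPase subunit, with a median of 142 TPM. Within one gene of these 31, the highest library exceeded the lowest by 1.2-fold in Psmd12 and by 1.86-fold in Psmc5, the extremes, and by 1.41-fold in the median gene. The chaperones that build the particles were lower, at 17.7 to 39.2 TPM for 19S assembly and 16.7 to 36.7 TPM for 20S assembly.

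**Figure D1:**
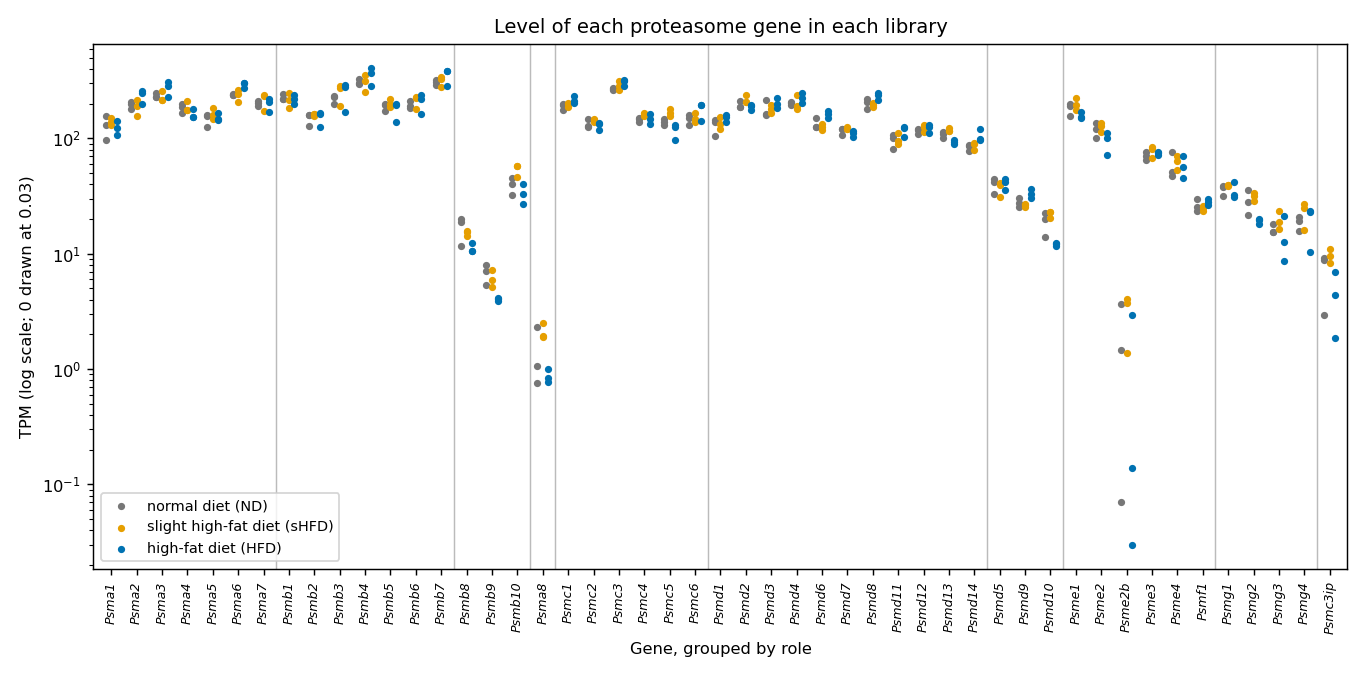
Level of each of the 49 genes in TPM on a log axis; each point is 1 library, coloured by maternal diet, and vertical lines part the groups by role. Core and 19S genes sit between 77.2 TPM (Psmd14) and 409 TPM (Psmb4) in every library, above the immunoproteasome, the chaperones, Psma8 and Psme2b.

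The summed level of the 14 core genes was 2930 ± 152 TPM in ND, 3022 ± 336 TPM in sHFD and 3146 ± 434 TPM in HFD (SD, n = 3 each). For the 17 genes of the 19S particle it was 2586 ± 84.2 TPM in ND, 2714 ± 11 TPM in sHFD and 2800 ± 139 TPM in HFD. Both sums overlapped between HFD and sHFD, and the core sums overlapped between all diets. The 19S sums of HFD (2800, 2940 and 2661 TPM) lay above those of ND (2649, 2619 and 2491 TPM), and so did those of sHFD (2726, 2704 and 2713 TPM). The sums were not tested.

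None of the 3 constitutive proteolytic subunits passed the test in any comparison in limma, or had an unadjusted p under 0.05. Psmb5, which carries the chymotrypsin-like site, had 198, 194 and 139 TPM in HFD libraries, against 173, 201 and 196 TPM in ND libraries. Psmb6, with the caspase-like site, had 238, 220 and 164 TPM in HFD libraries and 192, 182 and 211 TPM in ND libraries. Psmb7, with the trypsin-like site, had 387, 381 and 287 TPM in HFD libraries and 291, 312 and 320 TPM in ND libraries. The groups overlapped in all 3 genes, and the log2 differences were -0.11, 0.08 and 0.18 (limma adjusted p = 0.678, 0.803 and 0.471). The sHFD libraries held 220, 200 and 188 TPM of Psmb5, 227, 179 and 224 TPM of Psmb6 and 325, 282 and 339 TPM of Psmb7. With Psmb7, the highest genes of the family were Psmb4, a beta subunit without a proteolytic site, and the ATPase Psmc3. Psmb4 had 409, 373 and 284 TPM in HFD libraries, against 302, 298 and 325 TPM in ND libraries. The sHFD libraries had 312, 254 and 355 TPM of it. Psmc3 had 320, 317 and 284 TPM in HFD libraries, against 275, 265 and 268 TPM in ND libraries. In sHFD it had 317, 261 and 284 TPM.

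The upstream sequence of 4 genes is shown because it holds letters of elements known to drive constitutive, interferon-responsive or basal transcription of this family. Sequences are from RefSeq on GRCm38.p6, given 5′ to 3′ on the gene's strand, and capitals mark the match. Psmb5 and Psmb6 hold TGACNNNGC, the core of the antioxidant response element that Nfe2l1 binds. Psmb8, an immunoproteasome gene, holds TTCNNNGAA, the gamma-activated site of interferon-responsive genes, in a stretch of 30 bases. Psmd10, the gene with the smallest p between the high-fat diets, holds CCAAT, read on the opposite strand.
Psmb5 (chr14:54618026-54618115, minus strand): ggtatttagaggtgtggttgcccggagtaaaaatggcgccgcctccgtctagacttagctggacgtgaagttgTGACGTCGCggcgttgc
Psmb6 (chr11:70525267-70525356, plus strand): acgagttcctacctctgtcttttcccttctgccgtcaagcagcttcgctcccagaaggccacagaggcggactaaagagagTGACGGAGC
Psmb8 (chr17:34198087-34198116, plus strand): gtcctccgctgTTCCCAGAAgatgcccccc
Psmd10 (chrX:140956742-140956831, minus strand): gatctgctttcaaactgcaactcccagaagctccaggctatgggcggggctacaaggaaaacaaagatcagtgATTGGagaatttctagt

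Promoter windows of 300 bases, 250 before and 50 after the start, were found for 41 of the 49 genes, 44 windows in all, and were searched on both strands. TGACNNNGC was in 13.6% of them, against 12.4% of all 32851 windows, and the genes were Psmb5, Psmb6, Psmd9, Psmd12, Psmc6 and Psme4. TTCNNNGAA was in 6.82% (Psmb8, Psmd2 and Psmg1), against 8.3% of all. GAAA and GAAA parted by 2 bases, a core of the interferon-stimulated response element, were in 11.4% (Psme1, Psmb3, Psmd4, Psmd9 and Psmg4), against 3.44% of all. CCAAT was in 31.8%, against 37.4% of all, and in 6 of the 12 windows of core genes. The heat-shock element, searched as TTC, GAA and TTC parted by 2 bases each, was in 0 of the 44, against 0.603% of all. A match is a run of letters and says nothing of binding in these cells.

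In HFD against ND, 0 of 49 genes passed an adjusted p of 0.05 in limma, where 10.9% of all 13655 genes tested did (1.28% higher and 9.59% lower). At an unadjusted p under 0.05 there were 4, Psmb9, Psmd10, Psmg2 and Psmb8, all lower in HFD, or 8.16% of the 49, against 29.8% of all genes. The log2 fold changes ran from -0.63 to 0.31 with a median of 0.01, beside a median of -0.14 over all genes. The 95% interval of the difference lay within a 2-fold change in 46 of 49 genes, against 9961 of the 13655, and the exceptions were Psmb9, Psmc3ip and Psme2b. Without ND replicate 1, Psmd10, Psmg2 and Psmc3ip passed as lower (3 genes), where 20.9% of all genes did in the same fit. Without ND replicate 2, Psmb8 did (1 gene), where 3.98% of all genes did. Both shares of all genes are of those lower in HFD.

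By role, the log2 medians in HFD against ND were 0.06 for the alpha ring, 0.08 for the beta ring, 0.10 for the ATPase ring and 0.19 for the other 19S subunits, against -0.52 for the immunoproteasome and -0.17 for 20S assembly. The spread between libraries within a diet was a log2 SD of 0.167 in the median proteasome gene, 0.0977 in the ATPase ring and 0.255 over all genes tested. No test was made of these medians.

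The libraries of HFD and ND were fully apart in 9 of the 49 genes, or 18.4%, against 27.9% of all genes (5% higher and 22.9% lower). The 5 with every HFD library higher were Psma6, Psmc1, Psmc3, Psmd9 and Psmd14, and the 4 with every one lower were Psmb9, Psmd10, Psmd13 and Psmg2. Psmd14 had the smallest p among those higher, with 98.9, 120 and 96.6 TPM in HFD libraries and 88.5, 86.6 and 77.2 TPM in ND libraries (log2 0.31, SE 0.15, limma adjusted p = 0.173). It passed as higher, at a limma adjusted p of 0.05 after rounding, once libraries were scaled to a common median ratio, where 4.89% of all genes passed as higher. In sHFD it had 80.1, 90.3 and 91.2 TPM. Psma6, an alpha subunit, had 303, 303 and 276 TPM in HFD libraries against 237, 244 and 240 TPM in ND libraries (log2 0.29, SE 0.14, limma adjusted p = 0.189). The sHFD libraries had 241, 209 and 263 TPM of Psma6. Psmd6, a lid subunit, had 150, 174 and 161 TPM in HFD libraries and 152, 127 and 126 TPM in ND libraries, which overlap (log2 0.27, SE 0.14, limma adjusted p = 0.232).

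**Figure D2:**
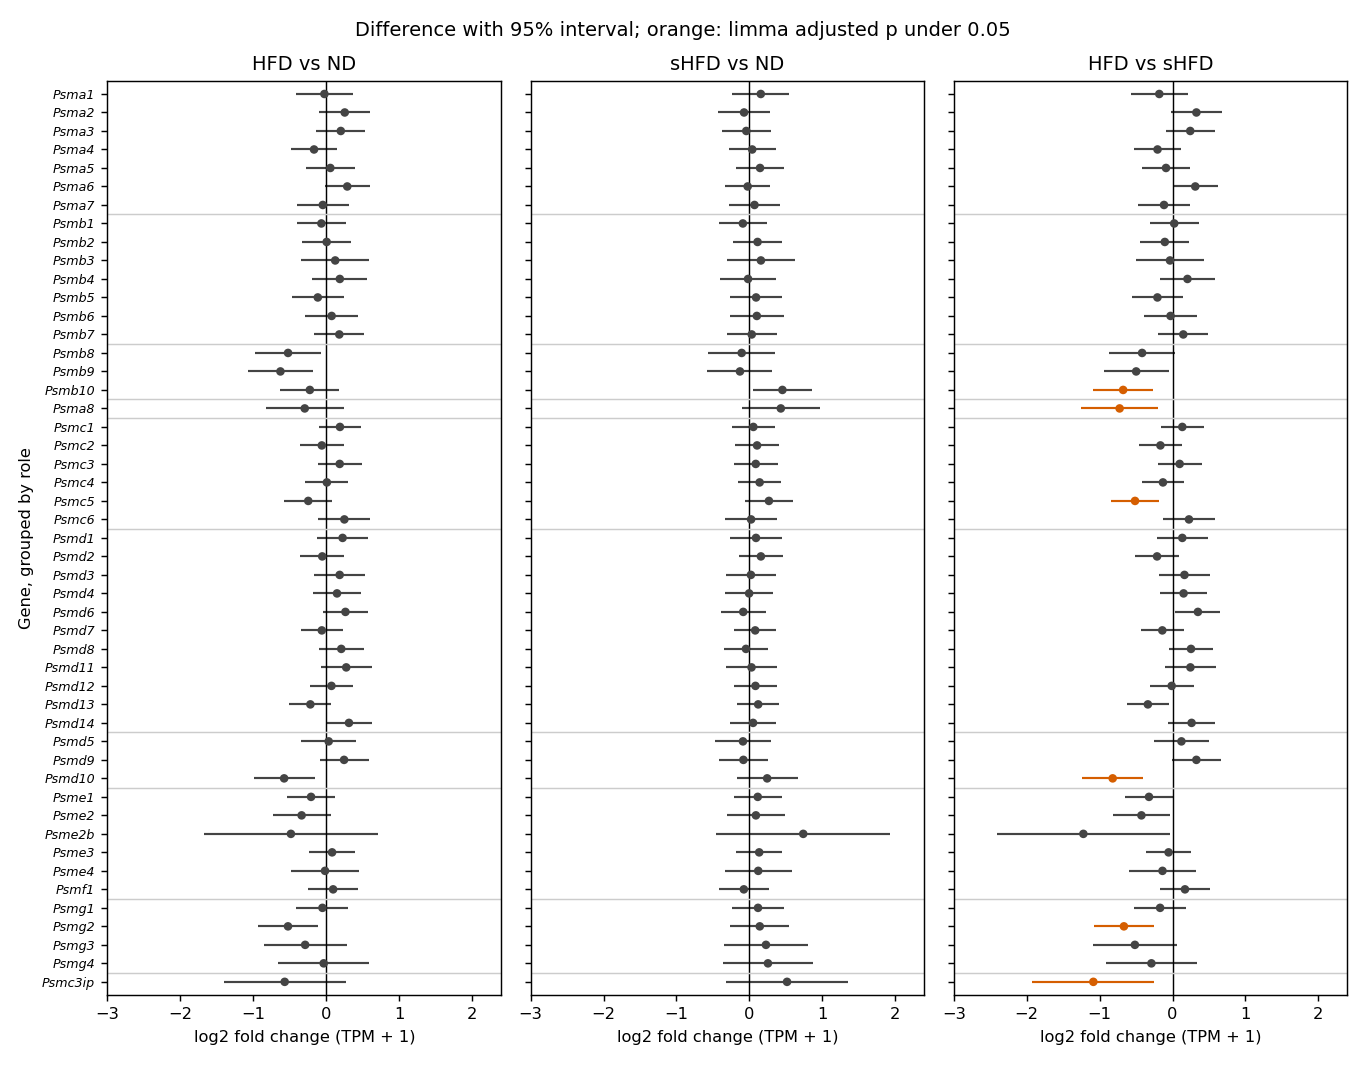
Log2 fold change of each gene (point) with its 95% interval (line) in the 3 comparisons; orange marks a limma adjusted p under 0.05. In HFD vs ND and sHFD vs ND 0 of 49 are orange, and in HFD vs sHFD the 6 orange genes all lie below 0.

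In sHFD against ND, 0 of 49 genes passed in limma, where 0.00732% of all genes did (1 gene), and 1 gene, Psmb10, had an unadjusted p under 0.05 (2.04%, against 7.36% of all genes). The log2 median was 0.09 (0.04507 without ND replicate 1), beside 0.00 over all genes (0.001). Of the 49 genes 36 were positive, as were 6854 of all 13655. The median log2 level of the 49 had an SD of 0.0869 between libraries within a diet. Libraries did not overlap in 5 genes, all higher in sHFD (Psmb10, Psmc4, Psmc5, Psmd7 and Psmd13), or 10.2%, against 9.4% of all genes (4.5% higher and 4.9% lower). The smallest p among higher genes belonged to log2 differences of 0.45 for Psmb10, 0.27 for Psmc5 and 0.43 for Psma8 (limma adjusted p = 0.672, 0.676 and 0.676). The smallest p among lower genes were those of Psmb9, Psmd6 and Psmb1, with log2 differences of -0.13, -0.08 and -0.09 (limma adjusted p = 0.878, 0.882 and 0.885). Psmb1, a beta subunit, had 213, 183 and 249.6 TPM in sHFD libraries, against 218, 221 and 244 TPM in ND libraries, which overlap. The signs for Psmd6 and Psmb1 turned with 1 library left out: 0.003827 without ND replicate 1 and 0.02186 without sHFD replicate 2.

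In HFD against sHFD, 6 of 49 genes fell and 0 rose in limma, that is 12.2%, where 34.2% of all genes changed (10.3% rose and 23.9% fell). The 3 comparisons share libraries, so their results are not independent. The genes that fell were Psmd10, Psmg2, Psmc5, Psmb10, Psma8 and Psmc3ip, of which the first 5 belong to the proteasome or its assembly. None of the 14 constitutive core genes and 1 of the 17 genes of the 19S particle was among them; at an unadjusted p under 0.05 the core had 1 gene, and the 49 had 12, or 24.5%, against 45.6% of all genes. The log2 median was -0.11, beside -0.16 over all genes. It was -0.02628 without HFD replicate 3 and -0.04161 without sHFD replicate 3. After scaling to a common median ratio, which brought the median of all genes to -0.01, 3 fell (Psmd10, Psmg2 and Psma8) and 5 rose (Psma6, Psmd6, Psmd9, Psmd11 and Psmd14), where 19.2% of all genes fell and 2597 of 13655 rose. Quantile normalization gave 3 that fell (Psmd10, Psmg2 and Psmc5) and 1 that rose (Psmd9), where 17.6% of all genes fell and as large a share rose.

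Psmd10 encodes gankyrin, a chaperone of the 19S base that also binds cell-cycle regulators, and it was the firmest of the 6. It had 11.7, 12.3 and 12.2 TPM in HFD libraries, against 23.0, 23.1 and 20.3 TPM in sHFD libraries. The groups did not overlap, and the ND libraries, at 13.98, 22.7 and 19.8 TPM, all lay above HFD. It fell by 0.82 on the log2 scale (SE 0.19, limma adjusted p = 0.00748), and it passed in each of the 9 fits that omit a library and under the 9 other settings. Against ND its log2 difference was -0.58 (SE 0.19, limma adjusted p = 0.0703). The gene (Entrez 53380) lies on chromosome X at 140948425 to 140956711.

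Psmg2 encodes a chaperone that starts the assembly of the alpha ring. It had 18.2, 20.2 and 19.4 TPM in HFD libraries, against 28.6, 33.4 and 31.6 TPM in sHFD libraries, with no overlap (log2 -0.67, SE 0.19, limma adjusted p = 0.0171). The ND libraries had 21.9, 35.9 and 28.2 TPM, all above HFD (log2 -0.52, limma adjusted p = 0.0862 for HFD against ND). The call against sHFD was lost without sHFD replicate 2, sHFD replicate 3 or HFD replicate 1 (adjusted p = 0.0562, 0.0558 and 0.054). Its partners did not pass with all libraries: Psmg1, Psmg3 and Psmg4 had log2 differences of -0.17, -0.52 and -0.29 (limma adjusted p = 0.444, 0.146 and 0.456). Without HFD replicate 1, where Psmg2 missed the threshold, Psmg3 passed as lower, and 16% of all genes fell in that fit. Psmg2 (Entrez 107047) lies on chromosome 18 at 67641587 to 67654181.

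Psmc5, an ATPase of the 19S base, had 131, 125 and 97.2 TPM in HFD libraries, against 180, 156 and 166 TPM in sHFD libraries. The groups did not overlap, and it fell by 0.51 (SE 0.15, limma adjusted p = 0.0218). In ND it had 130, 148 and 139 TPM, between the other diets and overlapping HFD. The call was lost under median-ratio scaling (adjusted p = 0.139) and without sHFD replicate 1, sHFD replicate 3 or HFD replicate 3 (adjusted p = 0.0826, 0.0624 and 0.0713). The other 5 ATPase genes had log2 differences between -0.17 (Psmc2) and 0.23 (Psmc6), and 0 of them passed. Psmc5 (Entrez 19184) lies on chromosome 11 at 106256185 to 106263112.

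Psma8, an alpha subunit of germ cells, had only 0.83, 1.00 and 0.78 TPM in HFD libraries, against 1.88, 2.49 and 1.93 TPM in sHFD libraries (log2 -0.73, SE 0.25, limma adjusted p = 0.0379). It passed in 3 of the 9 fits that omit a library, those without an ND library, and did not pass after quantile normalization (adjusted p = 0.114). The ND libraries had 0.75, 2.31 and 1.07 TPM, overlapping both. Psmc3ip had 6.96, 4.36 and 1.87 TPM in HFD libraries and 10.9, 9.52 and 8.34 TPM in sHFD libraries (log2 -1.09, SE 0.39, limma adjusted p = 0.0454). In ND it had 2.95, 9.22 and 8.89 TPM. It passed in 4 of the 9 fits that omit a library, and its exons overlap those of Mlx on the opposite strand in GENCODE M21. It also missed the threshold with no filter on low values, under median-ratio scaling and under quantile normalization (adjusted p = 0.096, 0.0899 and 0.178).

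**Figure D3:**
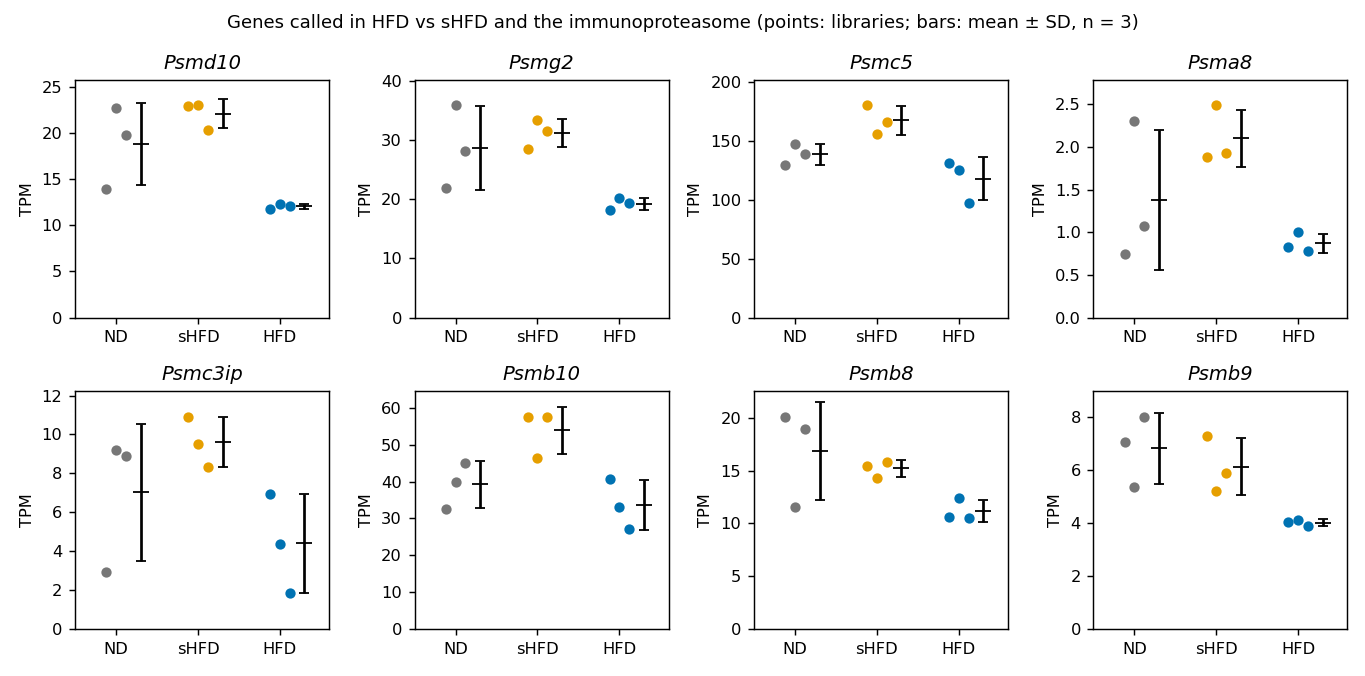
TPM of the 6 genes called in HFD vs sHFD and of Psmb8 and Psmb9, with 1 panel per gene, 1 point per library and the mean ± SD (n = 3) beside each diet. The HFD libraries of Psmd10 (11.7 to 12.3 TPM) and Psmb9 (3.87 to 4.11 TPM) lie below every library of the other diets.

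Of the 3 immunoproteasome genes, Psmb10 fell in HFD against sHFD, and the other two did not pass in any comparison. Psmb10, which takes the place of Psmb7, had 40.6, 33.0 and 27.2 TPM in HFD libraries, against 57.7, 46.5 and 57.7 TPM in sHFD libraries. The groups did not overlap, and it fell by 0.68 (SE 0.19, limma adjusted p = 0.016). In ND it had 32.6, 39.9 and 45.2 TPM, overlapping HFD (log2 -0.22, limma adjusted p = 0.45) and below every sHFD library. Median-ratio scaling (adjusted p = 0.0788) and quantile normalization (0.0511) each ended the call against sHFD, as did leaving out sHFD replicate 1, sHFD replicate 3, HFD replicate 2 or HFD replicate 3 (adjusted p = 0.0603, 0.0622, 0.0538 and 0.0556).

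Psmb9, which takes the place of Psmb6, had 4.04, 4.11 and 3.87 TPM in HFD libraries, against 7.06, 5.36 and 8.01 TPM in ND libraries. In sHFD it had 7.29, 5.2 and 5.88 TPM. HFD overlapped with neither, but the test did not pass against ND (log2 -0.63, SE 0.21, limma adjusted p = 0.0662) or sHFD (log2 -0.50, SE 0.21, limma adjusted p = 0.0775). Fitted without an intensity trend it passed against ND (adjusted p = 0.0467). In a fit of HFD and sHFD alone it passed as lower, as did Psme2b, and 8 of the 49 genes fell there, where 28.1% of all genes did. Psmb8, which takes the place of Psmb5, had 10.6, 12.4 and 10.52 TPM in HFD libraries, against 20.1, 11.6 and 18.95 TPM in ND libraries. In sHFD it had 15.5, 14.4 and 15.8 TPM, all above HFD. It overlapped with ND through ND replicate 2 (log2 -0.52, SE 0.21, limma adjusted p = 0.12 against ND; -0.42, SE 0.21, adjusted p = 0.142 against sHFD). Psmb8 (Entrez 16913) and Psmb9 (Entrez 16912) are neighbours on chromosome 17, at 34198195 to 34201454 and 34182030 to 34187330, and Psmb10 (Entrez 19171) is on chromosome 8, at 105935728 to 105938392. Exons of Psmb9 overlap those of Tap1, and exons of Psmb8 an antisense transcript, on the opposite strand. Elsewhere in the family, exons of Psma4, Psmb7, Psmc3, Psmd13 and Psme1 also overlap those of a coding gene on the opposite strand. Those of Psmd1, Psme2b and Psmg3 overlap a coding gene on the same strand.

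Each alternative subunit was far below the one it replaces. Psmb8 stood at 9.03% ± 3.0 of the level of Psmb5 in ND, 7.56% ± 0.77 in sHFD and 6.43% ± 1.1 in HFD (SD, n = 3 each). Psmb9 stood at 3.48% ± 0.46 of Psmb6 in ND, 2.91% ± 0.29 in sHFD and 1.97% ± 0.34 in HFD. Psmb10 stood at 12.7% ± 1.5 of Psmb7 in ND, 17.1% ± 0.62 in sHFD and 9.54% ± 0.92 in HFD. The HFD shares of Psmb9, at 1.86% and 2.36% in replicates 2 and 3, and those of Psmb10, at 8.66% and 9.48% there, lay below every share in the other diets, as did replicate 1. Those of Psmb8 overlapped with both. A ratio within a library is not moved by a scale factor for that library, and the ratios were not tested.

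Markers of immune cells, in which these subunits are known to be high, moved too. Of 14 such markers 13 fell and 0 rose in HFD against ND, and 8 fell and 0 rose in HFD against sHFD in limma. Of all genes 9.59% fell in HFD against ND and 23.9% in HFD against sHFD. The summed level of the 14 markers was 579 to 831 TPM in ND, 471 to 586 TPM in sHFD and 324 to 380 TPM in HFD, and 0 of the 14 were at 0 in every library. The summed immunoproteasome level was 56.9 to 72.2 TPM in ND, 66.0 to 80.4 TPM in sHFD and 41.6 to 55.3 TPM in HFD. Of its 3 genes only Psmb10 had a higher mean in sHFD than in ND (53.9 against 39.2 TPM). Psmb8 and Psmb9 had lower means in sHFD than in ND (15.2 against 16.9 TPM and 6.12 against 6.81 TPM). In bulk RNA, fewer cells of a type and less RNA per cell cannot be told apart, and the part of immune cells in these differences was not tested.

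**Figure D4:**
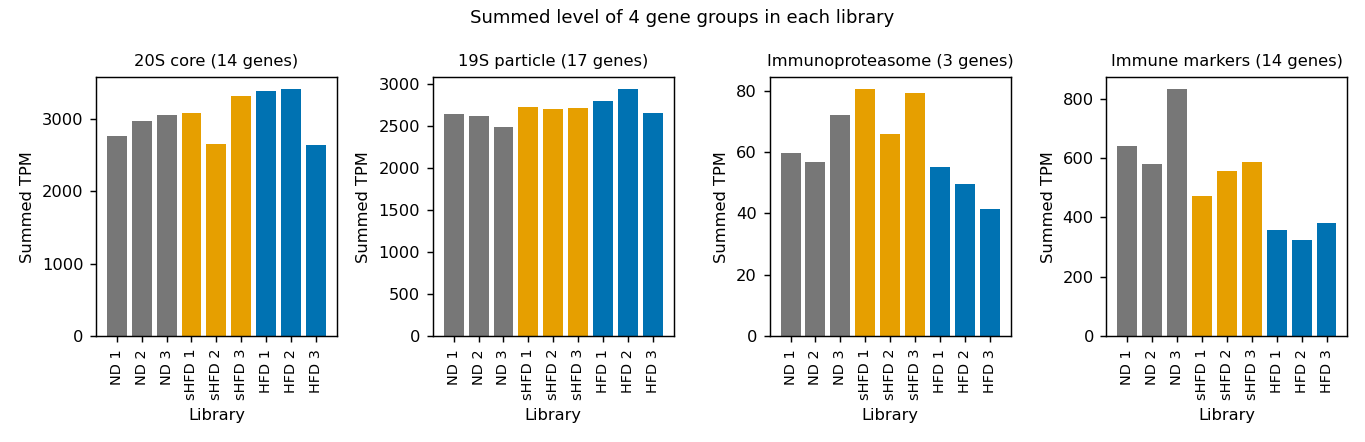
Summed TPM of the 20S core, the 19S particle, the immunoproteasome and the immune cell markers, 1 bar per library coloured by diet. The immunoproteasome and immune marker bars of HFD lie below those of the other diets. The core bars run from 2646 TPM (HFD replicate 3) to 3410 TPM (HFD replicate 2), and the 19S bars from 2491 TPM (ND replicate 3) to 2940 TPM (HFD replicate 2).

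Genes known to share interferon control with the immunoproteasome were read from a list of interferon and antigen-presentation genes, of which Irf1 and B2m rose in HFD against sHFD. Irf1, a factor that activates Psmb9, had 131, 116 and 159 TPM in HFD libraries, against 26.9, 31.6 and 27.3 TPM in sHFD libraries (log2 2.20, limma adjusted p = 0.00473). B2m, the light chain of MHC class I, rose too, with 570.3, 652 and 544 TPM in HFD libraries against 429, 420.03 and 428 TPM in sHFD libraries, and ND libraries at 593, 451 and 563 TPM (log2 0.46, limma adjusted p = 0.0365), and this call was lost in 6 of the 9 fits that omit a library and under quantile normalization. Against ND, Irf1 differed by 0.77 (limma adjusted p = 0.291), with ND libraries at 176, 26.02 and 104 TPM. Tap1, a peptide transporter whose gene adjoins Psmb9, had 18.6, 17.2 and 17.9 TPM in HFD libraries and 16.9, 15.3 and 17.4 TPM in sHFD libraries (limma adjusted p = 0.68).

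None of the activators or the inhibitor passed in any comparison in limma. Psme1 and Psme2, the interferon-responsive PA28 pair, had 170, 149 and 152 TPM and 111, 102 and 71.9 TPM in HFD libraries. In sHFD libraries they had 224, 175 and 193 TPM and 129, 113 and 136 TPM, above every HFD library in both genes (log2 -0.32 and -0.43, limma adjusted p = 0.12 and 0.0877). In ND they had 157, 199 and 190 TPM and 100.5, 120 and 136 TPM, overlapping HFD. Psme3, the nuclear PA28 gamma, had 71.8, 76.9 and 74.9 TPM in HFD libraries, against 70.9, 75.8 and 64.8 TPM in ND libraries. In sHFD it had 68.2, 83.7 and 81.1 TPM, and all 3 diets overlapped. Psme4, an activator linked to acetylated histones, had 45.2, 56.2 and 70.5 TPM in HFD libraries against 51.3, 76.3 and 47.2 TPM in ND libraries. In sHFD it had 52.8, 70.8 and 64.1 TPM, again with overlap between all diets. Psmf1, the inhibitor PI31, had 27.9, 26.35 and 29.9 TPM in HFD libraries, against 23.5, 25.8 and 24.99 TPM in sHFD libraries, which lay lower. In ND it had 29.8, 23.7 and 25.3 TPM, overlapping both. Psme2b had 2.94, 0 and 0.14 TPM in HFD libraries, against 4.03, 3.75 and 1.39 TPM in sHFD libraries. The ND libraries had 0.07, 3.64 and 1.47 TPM of Psme2b, all diets overlapped, and reads may have been split between it and Psme2.

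The libraries of HFD and sHFD were fully apart in 21 of the 49 genes, or 42.9%, against 51.3% of all genes (16.6% higher and 34.7% lower). The 7 with every HFD library higher were Psma6, Psmc1, Psmd6, Psmd8, Psmd9, Psmd14 and Psmf1. Psmd6 had 150, 174 and 161 TPM in HFD libraries against 127, 119 and 134 TPM in sHFD libraries (log2 0.35, SE 0.14, limma adjusted p = 0.0748), and Psma6 and Psmd9 differed by 0.31 and 0.33 (limma adjusted p = 0.103 and 0.119). Psmd9, a chaperone of the 19S base, had 32.9, 36.5 and 30.22 TPM in HFD libraries, against 26.9, 25.2 and 26.5 TPM in sHFD libraries. Its ND libraries had 30.15, 25.6 and 27.8 TPM. The 14 with every HFD library lower were the 6 that fell with Psmb8, Psmb9, Psmc2, Psmd2, Psmd7, Psmd13, Psme1 and Psme2.

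In HFD and in sHFD a single library was the lowest of its diet in most core genes. HFD replicate 3 was the lowest of its diet in 13 of the 14 core genes and sHFD replicate 2 in 12 of 14, where over all genes tested these libraries were the lowest in 21.1% and 15.1%. In ND, replicates 1 to 3 were the lowest in 9, 4 and 1 of the 14, against 42.5%, 23.5% and 34% of all genes. Psmb3, a beta subunit, had 293, 278 and 171 TPM in HFD replicates 1 to 3 and 275, 190 and 286 TPM in sHFD replicates 1 to 3. The median deviation of the core genes from their own means over the 9 libraries was -0.19 (log2) in both of these libraries, and 0.157 and 0.125 in HFD replicates 1 and 2. Among the 17 genes of the 19S particle HFD replicate 3 was the lowest of its diet in 12 and sHFD replicate 2 in 6, with median deviations of -0.01 and 0.08. Core genes have short coding transcripts, with a median of 974 bases in GENCODE M21 against 1526 for 19S genes and 2186 for genes tested. In HFD replicate 3 and sHFD replicate 2 the 2654 tested genes with the longest transcripts, over 3845 bases, had median deviations of 0.17 and 0.23, and the 2656 with the shortest, up to 1091 bases, of -0.17 and 0.08. The part of transcript length in the core pattern was not tested. Without HFD replicate 3 the core genes still numbered 0 among those called in any comparison.

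**Figure D5:**
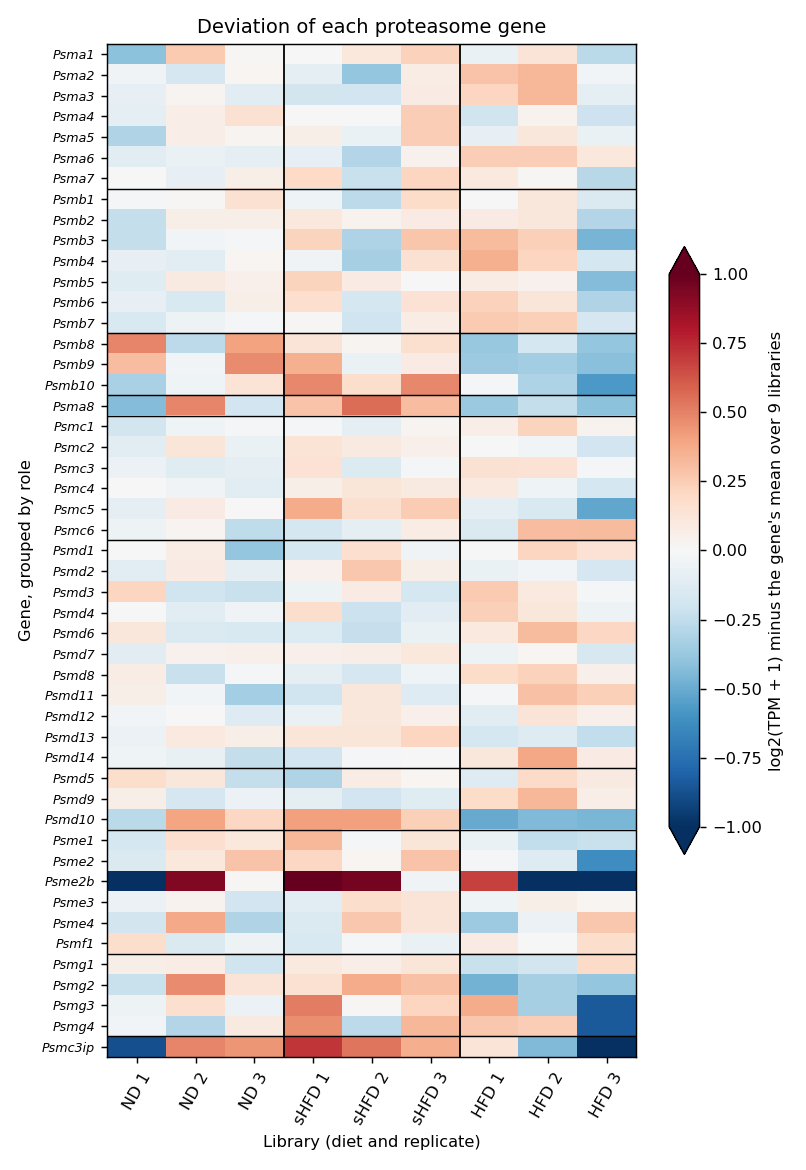
Deviation of each gene's log2(TPM + 1) from its mean over 9 libraries, genes in rows by role and libraries in columns by diet; red is higher and blue lower, and colours saturate at -1 and 1. The core genes are mostly blue in HFD replicate 3 and sHFD replicate 2, and Psmd10, Psmb9 and Psmg2 are blue in all 3 HFD libraries.

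Of 16 genes of proteins that bind or build the proteasome and do not carry its name, 15 were tested, and Paaf1 was not analysed here. In HFD against ND 0 of them passed in limma, with 3 at an unadjusted p under 0.05, and in sHFD against ND 0, with 1. Of all genes 10.9% and 0.00732% passed in these comparisons, and 29.8% and 7.36% had an unadjusted p under 0.05. In HFD against sHFD 3 rose and 1 fell, where 10.3% of all genes rose and 23.9% fell. Zfand2a, an arsenite- and heat-inducible factor that binds the 19S particle, rose (66.7, 71.5 and 93.9 TPM in HFD libraries, against 25.5, 33.4 and 26.5 TPM in sHFD libraries; log2 1.41, limma adjusted p = 0.0046). Its ND values were 87.7, 31.4 and 38.1 TPM, overlapping HFD through ND replicate 1 only. Akirin2, which carries proteasomes into the nucleus, and Txnl1, a thioredoxin of the 19S particle, rose by 0.57 and 0.47 (limma adjusted p = 0.0386 and 0.0391), passing in 3 and 4 of the 9 fits that omit a library. Akirin2 had 66.2, 94.4 and 119 TPM in HFD libraries, against 55.9, 59.2 and 68.4 TPM in sHFD libraries, which overlap, and in ND it had 70.5, 72.4 and 67.9 TPM. Ubqln4, a shuttle of ubiquitinated proteins, fell (log2 -0.63, limma adjusted p = 0.0173), a call kept in 6 of these 9 fits. It had 33.1, 31.7 and 39.5 TPM in HFD libraries, against 48.9, 64.8 and 49.6 TPM in sHFD libraries, and in ND it had 45.6, 54.5 and 39.8 TPM. Pomp, the maturation factor of the core, had 152, 146 and 114 TPM in HFD libraries and 139, 126 and 165 TPM in sHFD libraries (limma adjusted p = 0.796). ND libraries had 133, 143 and 162 TPM. The 19S subunits Adrm1, a ubiquitin receptor, and Sem1 had log2 differences of 0.38 and -0.03 (limma adjusted p = 0.111 and 0.926).

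Of 10 genes of the Nfe2l1 and Nfe2l2 control of proteasome genes, 3 rose and 1 fell in HFD against sHFD in limma. Over all genes tested 10.3% rose and 23.9% fell there. In the other comparisons 0 of the 10 passed. At an unadjusted p under 0.05 there were 5 in HFD against ND and 1 in sHFD against ND. The shares of all genes were 29.8% and 7.36%. The gene that fell was Nfe2l1 itself, with 123, 114 and 134 TPM in HFD libraries, against 174, 201 and 157 TPM in sHFD libraries (log2 -0.51, SE 0.16, limma adjusted p = 0.0244). The call was lost under median-ratio scaling and in 4 of the 9 fits that omit a library. The ND libraries had 144, 187 and 155 TPM, all above HFD (log2 -0.39, limma adjusted p = 0.121). Its relative Nfe2l2 had a log2 difference of -0.43 against sHFD (limma adjusted p = 0.0647), with 29.03, 35.6 and 39.2 TPM in HFD libraries and 43.1, 55.2 and 42.5 TPM in sHFD libraries. Its level in ND was 38.3, 38.7 and 36.2 TPM. The genes that rose were those of its small partners and rivals at DNA, Maff, Mafk and Bach1 (log2 1.10, 1.36 and 1.22; limma adjusted p = 0.00508, 0.00537 and 0.00542). Maff had 49.6, 43.1 and 64.9 TPM in HFD libraries, against 21.2, 27.8 and 22.3 TPM in sHFD libraries. Mafk had 83.3, 80.3 and 131 TPM in HFD libraries, against 32.3, 44.1 and 34.5 TPM in sHFD libraries. Bach1 had 63.2, 74.5 and 112 TPM in HFD libraries, against 28.2, 41.4 and 34.1 TPM in sHFD libraries. None of the 3 overlapped between these diets, whereas ND overlapped HFD in each, with 47.2, 23.3 and 34.4 TPM of Maff, 93.04, 34.6 and 48.95 TPM of Mafk and 81.2, 43.8 and 40.8 TPM of Bach1.

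A ubiquitin gene and heat-shock genes rose as well. Ubb, a polyubiquitin gene, rose in HFD against sHFD (log2 0.63, limma adjusted p = 0.0285) and did not pass against ND (log2 0.29, limma adjusted p = 0.36). Ubb had 3272, 2878 and 2673 TPM in HFD libraries, against 2066, 1696 and 1923 TPM in sHFD libraries, and ND libraries had 2765, 1880 and 2670 TPM. The call held in 4 of the 9 fits that omit a library. Of 9 heat-shock genes 8 rose in HFD against sHFD, where 10.3% of all genes did. The call held in 2 of the 9 fits that omit a library for Hspa8 and in 3 for Hspa1a. Hsp90aa1 and Hspb1 also rose in HFD against ND (log2 0.82 and 1.01, limma adjusted p = 0.0332 and 0.0367), where 1.28% of all genes rose. Their calls against ND held in 3 and 2 of the 9 fits. Hsp90aa1, a cytosolic chaperone, had 369, 463 and 588 TPM in HFD libraries, against 359, 237 and 215 TPM in ND libraries, and 199.9, 255 and 236 TPM in sHFD. Hspb1, a small heat-shock protein, had 1049, 934 and 949 TPM in HFD libraries, against 846, 340.06 and 393 TPM in ND libraries, and 473, 335 and 446 TPM in sHFD. Dnajb1, a co-chaperone, had 71.9, 74.5 and 103 TPM in HFD libraries, against 26.7, 25.4 and 26.8 TPM in sHFD libraries, and 88.1, 26.9 and 37.4 TPM in ND. Their summed level was 7036, 2391 and 3062 TPM in ND replicates 1 to 3, 2572 to 2972 TPM in sHFD and 6362 to 8694 TPM in HFD. ND replicate 1 thus stood with the HFD libraries in this sum. It was the lowest of its diet in 23 of the 49 proteasome genes (46.9%), against 42.5% of all genes tested. The part of heat-shock induction in the differences between diets was not tested.

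Markers of the labelled cell type were high: their summed level (8 genes, among them Myh6 and Tnnt2) was 19860 to 33050 TPM in ND, 34390 to 42940 TPM in sHFD and 24530 to 29700 TPM in HFD. Fibroblast markers (7 genes) summed to 9031 to 11180 TPM in ND, 7320 to 9643 TPM in sHFD and 8773 to 9854 TPM in HFD, and 0 of the 7 passed in any comparison in limma, with 2, 1 and 1 at an unadjusted p under 0.05. Endothelial markers summed to 2786 to 4249 TPM in ND, 2764 to 3005 TPM in sHFD and 3134 to 3518 TPM in HFD. Red cell markers summed to 8047 to 18760 TPM in ND, 9309 to 12970 TPM in sHFD and 4252 to 7717 TPM in HFD, and 6 of 7 fell in HFD against sHFD and 1 in HFD against ND. Of the 8 cardiomyocyte markers 2 and of the 7 endothelial markers 1 fell in HFD against sHFD. Smooth muscle and pericyte markers summed to 1208 to 1410 TPM in ND, 1512 to 2324 TPM in sHFD and 1290 to 1607 TPM in HFD. Of 7 such markers 4 fell and 1 rose in HFD against sHFD, and 3 fell and 1 rose in HFD against ND. Of all genes 23.9% fell and 10.3% rose in HFD against sHFD, and 9.59% fell and 1.28% rose in HFD against ND. The part of other cell types in the differences of proteasome genes was not tested.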

How the data were processed

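Values are TPM, deposited by the authors as 1 table with 1 column per library; each column summed to 999999 to 1000001. The submitters' processing notes name RSEM 1.3.1 and the build GRCm38 without saying what each was used for. Aligner, annotation and strandedness: not given in the sources used here. CON, MID and HIGH columns were read as ND, sHFD and HFD. Depth is unknown.

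Levels were taken as log2(TPM + 1), and the 13655 genes averaging 1 TPM or more were fitted with limma 3.58.1 (R 4.3.3). The model held the 3 diets, left 6 residual degrees of freedom and let the prior variance follow the mean level. P-values are two-sided, Benjamini-Hochberg adjusted over all genes tested, with a threshold of 0.05. A fold change on this log2(TPM + 1) scale is too small for low genes. With 3 libraries a diet, exact permutation gives no p below 0.1 and was not used. The fit was tested on simulated data with noise drawn separately for each gene. Such noise lacks shifts shared by many genes of a library, so the simulation does not cover them. The members and lists were chosen with earlier results of these data known. Genes given in every library were the catalytic pairs, activators and inhibitor, up to 5 members past the threshold in each direction of a comparison (filled to 3 by smallest p), the 3 highest and 3 lowest, and Psmc3ip; from other lists, genes past the threshold, up to 3 a comparison, with Nfe2l1, Nfe2l2, Pomp and Ubb. Some results of the interferon and ubiquitin lists are not reported here, so no counts are given for these lists. Other genes named were chosen after their values were seen. Positions and promoters are RefSeq GRCm38.p6; transcript lengths and overlaps are GENCODE M21. Alternatives were another pseudocount (0.1), filters, scalings, variance model, sample set, replicate block and leaving out each library.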

Additional observations from a re-analysis of the deposited data

How the results depend on the processing

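The count of proteasome genes passing the test depended on scaling and on single libraries. With median-ratio scaling 1 gene rose in HFD against ND and the log2 median was 0.17; in HFD against sHFD 5 rose, 3 fell and the median was 0.05848. Quantile normalization gave 1 that rose and 3 that fell in HFD against sHFD. Without an intensity trend 1 fell in HFD against ND. Leaving out 1 library at a time, 0 to 3 fell in HFD against ND (3 without ND replicate 1) and 1 to 6 fell in HFD against sHFD (1 without sHFD replicate 3, 2 without sHFD replicate 1 or HFD replicate 3, 3 without sHFD replicate 2 or HFD replicate 2), while over all genes 14.3% to 27.2% fell in HFD against sHFD. Without HFD replicate 1 the genes that fell in HFD against sHFD were Psmd10, Psmb10, Psmc5, Psmc3ip, Psmg3 and Psme2b, so Psmg2 and Psma8 were not among them. Psmd10 passed in HFD against sHFD under every one of these settings. In sHFD against ND 0 genes passed under all of them, and the log2 differences of Psmd6 and Psmb1 ran from -0.1295 to 0.003827 and from -0.2006 to 0.02186 with a library left out. Same-numbered libraries did not deviate together throughout (correlations from -0.287 to 0.413), so the numbers were not taken as pairs; with the replicate number as a block 5 genes fell in HFD against sHFD, with Psmc3ip, and outside the family B2m and Hspa8, missing the threshold (adjusted p = 0.0577, 0.053 and 0.0545). Over all genes the count in HFD against ND was 1484, and 32 to 3842 with a library left out; in HFD against sHFD it was 4665, and 2696 to 5458; in sHFD against ND it was 1, and 0 to 360 (360 without ND replicate 2). With 3 libraries a diet and unknown depth, the number of libraries limits the precision. The cause of these changes was not tested.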
